A study of Mus musculus with 24 samples.

Results

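The comparison set 12 striatum-rich against 12 striatum-poor RNA-seq libraries of the mouse nucleus accumbens, out of 24 libraries in all. Libraries were ranked within each of 4 groups of 6 by the level of Ppp1r1b in CPM, its count divided by the library total on a scale common to all libraries. The 3 highest of each group were called rich and the 3 lowest poor. Ppp1r1b encodes DARPP-32, a phosphoprotein of striatal medium spiny neurons that becomes an inhibitor of protein phosphatase 1 once protein kinase A has phosphorylated it. Rich and poor are thus defined by a measured level and not by a treatment. The levels of Ppp1r1b in rich and poor libraries are given as a description. For every other gene the test asks whether its level went with that of Ppp1r1b over these libraries.

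Medium spiny neurons are the GABAergic projection neurons that make up most of the striatum, of which the nucleus accumbens is the ventral part. Direct pathway neurons carry the dopamine D1 receptor and the peptide precursors for substance P and dynorphin, whereas indirect pathway neurons carry the dopamine D2 receptor, the adenosine receptor Adora2a and the precursor for enkephalin. Dopamine and adenosine act in them on a cyclic AMP cascade that runs through the G protein Golf, adenylyl cyclase 5, protein kinase A, DARPP-32 and phosphodiesterases. The accumbens borders on the septum, the basal forebrain and bed nuclei, and the preoptic area and cortex lie close by, so that a tissue punch can hold neurons of these regions.

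The libraries came from mice of the strains C57BL/6J or DBA/2J, 8 to 9 weeks old, and which strain gave which library is not stated in the sources used here. The mice had tibial spared nerve injury (SNI, a model of lasting neuropathic pain) of the left sciatic nerve under isoflurane or a sham operation that left the nerves untouched. All received an AAV8 vector in the accumbens of both sides, under the neuronal hSyn promoter, which is not specific to medium spiny neurons. The vector carried Mef2c, an activity-regulated transcription factor, with Egfp, or Egfp alone. The groups are named SNI Mef2c, SNI Gfp, Sham Mef2c and Sham Gfp, with 6 libraries each. Tissue from both sides was punched from thick coronal sections. The labels do not say how many mice gave each library, so the p-values below measure the spread between these libraries. Total counts lay between 25477019 and 36570108 per library, and no pair of libraries within a group agreed within sampling noise.

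The range of Ppp1r1b within each group was wider than the span of the group means. In SNI Mef2c the rich libraries 3, 5 and 6 held 638, 683 and 700 CPM, against 299, 630 and 632 CPM in the poor libraries 1, 2 and 4. In SNI Gfp the rich libraries 2, 4 and 6 held 709, 556 and 540 CPM, against 356, 456 and 429 CPM in the poor libraries 1, 3 and 5. The poor libraries of SNI Mef2c thus differed widely among themselves, and those of SNI Gfp did not. In Sham Mef2c the rich libraries 1, 3 and 6 held 553, 617 and 501 CPM, against 454, 296 and 342 CPM in the poor libraries 2, 4 and 5. Sham Gfp had 598, 585 and 604 CPM in the rich libraries 1, 4 and 5, against 373, 290 and 421 CPM in the poor libraries 2, 3 and 6. The 5 SNI Mef2c libraries other than library 1 were all above the rich libraries 1 and 6 of Sham Mef2c, so that a poor library of one group can hold more Ppp1r1b than a rich library of another. Between the lowest rich and the highest poor library the gap was 0.835% of the poor value in SNI Mef2c, 18.5% in SNI Gfp, 10.3% in Sham Mef2c and 39.1% in Sham Gfp. The SNI Mef2c split therefore rests on library 1, whose level was less than that of the other 5 by far more than they differed among themselves. The mean of the rich libraries was 1.29 times that of the poor ones in SNI Mef2c, 1.45 times in SNI Gfp, 1.53 times in Sham Mef2c and 1.65 times in Sham Gfp. The Ppp1r1b gene lies at chr11:98348404-98357796 on the plus strand (mm10), and the counts cover its whole span, introns included. The antisense gene 1700003D09Rik overlaps it and may share reads with it, as it is not known whether counting used the strand.

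**Figure D1:**
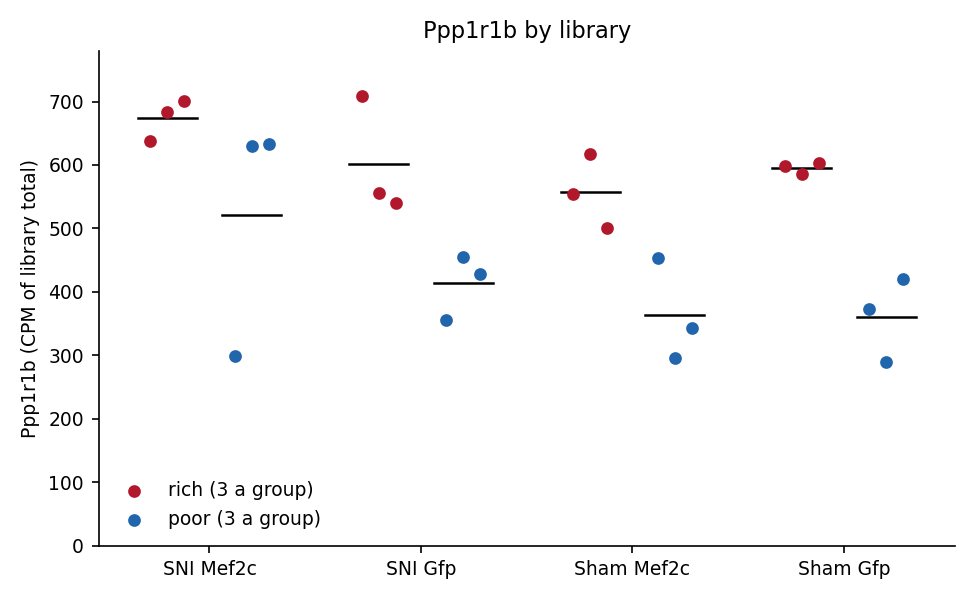
Level of Ppp1r1b in each of the 24 libraries, in CPM of the library total, by group, with the 3 rich libraries left of the 3 poor ones and a bar at each mean. In SNI Mef2c the poor libraries at 630 and 632 CPM sit beside the lowest rich library at 638 CPM, while library 1 at 299 CPM stands apart.

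Across all 23738 genes tested by edgeR with group as a covariate, 2110 genes were higher in the rich libraries, which is 8.89% of the genes, and 3083 were lower, which is 13%, at an adjusted p under 0.05. The changes were mostly small: 57 of the higher and 126 of the lower genes differed by more than 2-fold. In total 1216 of the genes that passed overlap a gene with more counts, on either strand, and such pairs may share reads. The tissue is bulk, so fewer cells of a type and less RNA per cell cannot be told apart in any value below.

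Of the 22 genes listed as shared by medium spiny neurons besides Ppp1r1b, 20 rose in the rich libraries and none fell, with a median log2 fold change of 0.57, against 8.89% of all genes and a median of -0.0004. Their summed level lay between 9994 and 14218 CPM in rich libraries (median 11606) and between 6047 and 12591 CPM in poor libraries (median 7977). Every poor library thus held these transcripts at high levels, and poor is meant relative to the other libraries of the group. Rasd2, a small GTPase of the striatum also called Rhes, lay between 213 and 372 CPM in rich libraries (median 306) and between 119.9 and 316 CPM in poor libraries (median 159.9) (log2 fold change 0.75, SE 0.10, adjusted p = 0.000440). The poor libraries above 200 CPM of Rasd2 were the 3 of SNI Mef2c, at 243, 303 and 316 CPM, and the highest in the other groups was 173.5 CPM. Rxrg, a retinoid X receptor, lay between 64.6 and 138 CPM in rich libraries (median 111) and between 39.8 and 107 CPM in poor libraries (median 55.9) (log2 fold change 0.83, SE 0.12, adjusted p = 0.000453). Scn4b, a sodium channel beta subunit, lay between 353 and 699 CPM in rich libraries (median 499) and between 179 and 639 CPM in poor libraries (median 260.4) (log2 fold change 0.80, SE 0.12, adjusted p = 0.000545). For both genes every rich library was above every poor library in 3 of the 4 groups, all but SNI Mef2c. Bcl11b, the transcription factor CTIP2 that medium spiny neurons need to mature, moved less and lay between 216 and 282 CPM in rich libraries (median 239) and between 149 and 271 CPM in poor libraries (median 187) (log2 fold change 0.37, SE 0.06, adjusted p = 0.000631). Foxp1, a forkhead transcription factor, lay between 198 and 296 CPM in rich libraries (median 247) and between 102 and 253 CPM in poor libraries (median 146) (log2 fold change 0.66, SE 0.11, adjusted p = 0.000728), and in each of the 4 groups all rich libraries were above all poor ones. Gng7, Arpp21 and Meis2 separated the libraries in all 4 groups as well, with log2 fold changes of 0.57, 0.47 and 0.42. The same 20 of 22 count held with each of the 24 libraries left out in turn, where 1658 to 2549 of all genes were higher.

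The 2 genes of the list that did not pass were Gad1 and Gad2, the enzymes that make GABA and that all GABAergic neurons use. Gad1 lay between 549 and 785 CPM in rich libraries (median 681) and between 368 and 853 CPM in poor libraries (median 735) (log2 fold change -0.09, SE 0.10, adjusted p = 0.556). Gad2 lay between 538 and 883 CPM in rich libraries (median 742) and between 240.4 and 902 CPM in poor libraries (median 785) (log2 fold change -0.01, SE 0.14, adjusted p = 0.985). The lowest library for both was SNI Mef2c library 1, at 368 CPM of Gad1. The fitted difference of Gad1 was 0.30 in SNI Mef2c, and -0.34, -0.06 and -0.27 in SNI Gfp, Sham Mef2c and Sham Gfp. The sign thus differed between the groups, and the p-value does not show that the levels were alike.

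**Figure D2:**
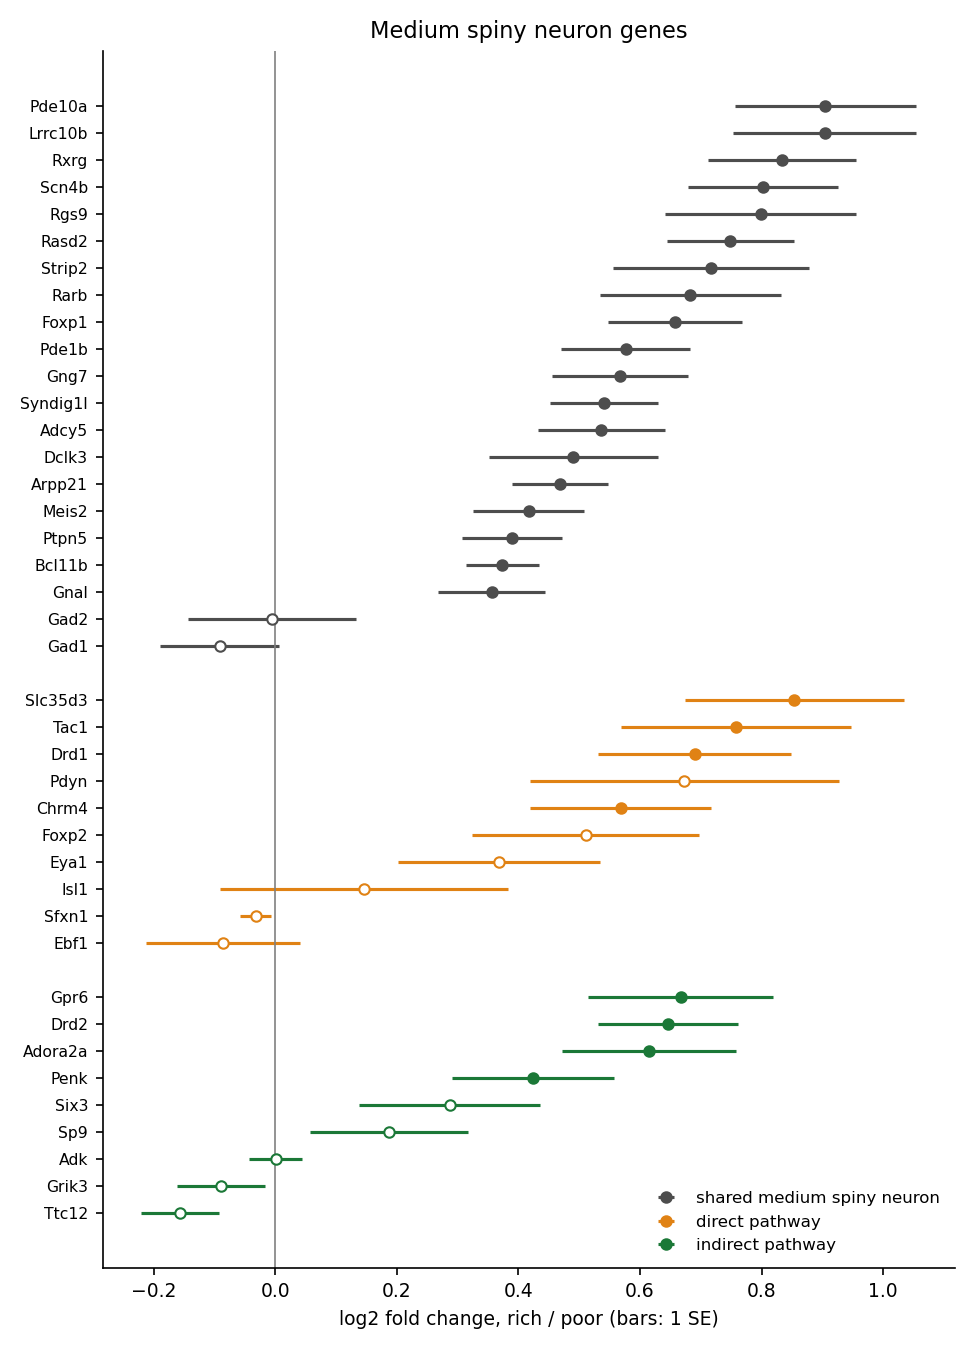
Log2 fold change of rich against poor libraries for genes of the shared medium spiny neuron, direct pathway and indirect pathway lists (edgeR, 24 libraries, group as a covariate). Bars are 1 SE, derived from the fold change and the F statistic of the test. Filled points passed an adjusted p of 0.05, open points did not, and the grey line marks no difference.

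Among 10 genes of direct pathway neurons, 4 rose and none fell, against 8.89% higher and 13% lower of all genes, with a median log2 fold change of 0.54. Drd1, the dopamine D1 receptor, lay between 175 and 296 CPM in rich libraries (median 231) and between 61.8 and 250.5 CPM in poor libraries (median 145) (log2 fold change 0.69, SE 0.16, adjusted p = 0.00414). Tac1, the precursor for substance P, lay between 176 and 321 CPM in rich libraries (median 254) and between 62.4 and 315 CPM in poor libraries (median 148) (log2 fold change 0.76, SE 0.19, adjusted p = 0.00696). Slc35d3, a transporter-like protein of direct pathway neurons that affects D1 receptor trafficking, had a log2 fold change of 0.85 (adjusted p = 0.00240). Chrm4, the muscarinic M4 receptor, had 0.57 (adjusted p = 0.00926). Pdyn, the precursor for dynorphin, lay between 220.2 and 363 CPM in rich libraries (median 284) and between 16.5 and 304 CPM in poor libraries (median 189), and its rich libraries were above the poor ones in each of the 4 groups, yet it did not pass (log2 fold change 0.67, SE 0.25, adjusted p = 0.0630). Without SNI Mef2c library 1, 7 of the 10 genes passed in place of 4. Over all genes that fit called 2549 higher in place of 2110.

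Of 9 tested genes of indirect pathway neurons, 4 rose and none fell, against 8.89% higher and 13% lower of all genes, with a median log2 fold change of 0.29. Drd2, the dopamine D2 receptor, lay between 111 and 164 CPM in rich libraries (median 133) and between 54.5 and 137 CPM in poor libraries (median 84.8), and separated rich and poor libraries in each of the 4 groups (log2 fold change 0.65, SE 0.12, adjusted p = 0.000998). Adora2a, the adenosine receptor of these neurons, lay between 184 and 283 CPM in rich libraries (median 206) and between 72.6 and 247 CPM in poor libraries (median 142) (log2 fold change 0.61, SE 0.14, adjusted p = 0.00452). Gpr6, an orphan receptor enriched in indirect pathway neurons, had a log2 fold change of 0.67 (adjusted p = 0.00396). Penk, the precursor for enkephalin, had 0.42 (adjusted p = 0.0256), and did not pass without Sham Mef2c library 4 (adjusted p = 0.0506). Receptors of both pathways therefore rose with Ppp1r1b, by a log2 fold change of 0.69 for Drd1 and 0.65 for Drd2. Without SNI Mef2c library 3, 1 gene of the indirect list fell, where 3011 of all genes were lower. The difference between the folds of Drd1 and Drd2 was not tested.

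The cyclic AMP cascade around DARPP-32 moved with it in most members. Of 34 genes of dopamine and cAMP signalling tested, 22 rose and 4 fell, against 8.89% higher and 13% lower of all genes, with a median log2 fold change of 0.34. Enzymes that break down cyclic nucleotides were among the larger rises. Pde10a, the main phosphodiesterase of medium spiny neurons, lay between 783 and 1356 CPM in rich libraries (median 1055) and between 345 and 1254 CPM in poor libraries (median 497) (log2 fold change 0.90, SE 0.15, adjusted p = 0.000700). Pde7b had a log2 fold change of 0.63, and Pde1b, which calcium and calmodulin activate, had 0.58. Pde4b, a cAMP-specific phosphodiesterase, lay between 176 and 236 CPM in rich libraries (median 203) and between 122 and 194 CPM in poor libraries (median 143), and all rich libraries were above all poor ones in each of the 4 groups (log2 fold change 0.47, SE 0.05, adjusted p = 0.000295). Adcy5, the adenylyl cyclase of the striatum, lay between 994 and 1364 CPM in rich libraries (median 1126) and between 575 and 1253 CPM in poor libraries (median 776) (log2 fold change 0.54, SE 0.10, adjusted p = 0.00153). Rgs9, which speeds the return of G proteins to their resting state, had 0.80. Ppp1ca, a catalytic subunit of protein phosphatase 1, the enzyme that DARPP-32 inhibits, had 0.30, and the calcineurin subunit Ppp3ca, whose enzyme dephosphorylates DARPP-32, had 0.35.

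The stimulatory G proteins split. Gnal, the alpha subunit of Golf that couples dopamine D1 and adenosine receptors to adenylyl cyclase in the striatum, lay between 599.6 and 869 CPM in rich libraries (median 709.5) and between 376 and 770.1 CPM in poor libraries (median 541) (log2 fold change 0.36, SE 0.09, adjusted p = 0.00654). Gnas, the alpha subunit of Gs that does so in most other cells, lay between 299.6 and 439.7 CPM in rich libraries (median 353) and between 331 and 713 CPM in poor libraries (median 537) (log2 fold change -0.50, SE 0.10, adjusted p = 0.00139). Nespas, an antisense RNA of the Gnas locus, also fell, with -1.98, but overlaps Gnas, and the pair may share reads. The other genes of the list that fell encode protein kinase A subunits: Prkaca had -0.19, Prkar1a -0.14 and Prkar1b -0.17. In 3 of the 4 groups, all but SNI Mef2c, every rich library was below every poor one for Gnas, Prkaca and Prkar1a. Prkar1b did not pass without library 1, 2, 5 or 6 of SNI Gfp, 1, 3 or 4 of Sham Mef2c, or 3, 4 or 5 of Sham Gfp (adjusted p between 0.0545 and 0.0748).

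Neuropeptides and their receptors went in both directions. Of 13 genes of this list, 5 rose and 4 fell, against 8.89% higher and 13% lower of all genes, with a median log2 fold change of 0.17. Oprk1, the kappa opioid receptor, lay between 49.1 and 87.3 CPM in rich libraries (median 79.2) and between 18.9 and 87.8 CPM in poor libraries (median 43.3) (log2 fold change 0.72, SE 0.16, adjusted p = 0.00286). Oprd1, the delta opioid receptor, had a log2 fold change of 0.49, and Cartpt, the precursor for CART peptides, had 0.69. Oprm1, the mu opioid receptor, lay between 57.2 and 94.3 CPM in rich libraries (median 76.7) and between 61.6 and 109 CPM in poor libraries (median 87.4), with -0.13 (SE 0.08, adjusted p = 0.254). The opioid-like nociceptin system was lower in the rich libraries: Oprl1, its receptor, lay between 28.4 and 44.3 CPM in rich libraries (median 38.0) and between 37.7 and 61.2 CPM in poor libraries (median 49.4) (log2 fold change -0.42, SE 0.07, adjusted p = 0.000715), and its precursor Pnoc had -0.92. Tacr3, the neurokinin 3 receptor, lay between 2.19 and 15.3 CPM in rich libraries (median 5.23) and between 3.57 and 28.7 CPM in poor libraries (median 18.9) (log2 fold change -1.38, SE 0.30, adjusted p = 0.00263). Crh, corticotropin-releasing hormone, lay between 1.21 and 7.85 CPM in rich libraries (median 3.29) and between 3.65 and 13.5 CPM in poor libraries (median 8.06) (log2 fold change -1.21, SE 0.24, adjusted p = 0.00161). In SNI Mef2c the fitted difference of Tacr3 was -0.12 and that of Crh -0.27, against -2.53 and -2.49 in Sham Gfp. Mgll, the lipase that degrades the endocannabinoid 2-arachidonoylglycerol, rose (log2 fold change 0.45, SE 0.07, adjusted p = 0.000631), and Napepld, an enzyme that makes anandamide, fell (log2 fold change -0.39, SE 0.09, adjusted p = 0.00515).

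Subunits of GABA receptors went in both directions: of 15 genes tested, 4 were higher and 6 lower in the rich libraries, against 8.89% higher and 13% lower of all genes, with a median log2 fold change of -0.15. Gabrd, the delta subunit of receptors outside the synapse, lay between 75.9 and 119 CPM in rich libraries (median 98.5) and between 38.7 and 111 CPM in poor libraries (median 61.9) (log2 fold change 0.62, SE 0.11, adjusted p = 0.000739). Gabra4, its usual alpha partner in the striatum, had 0.45, and overlaps Gabrb1. Gabra3 had -0.38, Gabrb2 -0.55 and Gabre, an epsilon subunit known from hypothalamus and brain stem, -1.54. Gabrq, the theta subunit of the same regions, was among the largest falls of all genes and lay between 1.15 and 10.3 CPM in rich libraries (median 3.37) and between 1.67 and 56.7 CPM in poor libraries (median 13.5) (log2 fold change -1.72, SE 0.38, adjusted p = 0.00310).

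Of 27 glutamate receptor and scaffold genes, 11 rose and 4 fell, against 8.89% higher and 13% lower of all genes, with a median log2 fold change of 0.18. Homer1, a scaffold that binds group I metabotropic receptors, lay between 133 and 199.6 CPM in rich libraries (median 171) and between 83.7 and 176 CPM in poor libraries (median 110.2) (log2 fold change 0.54, SE 0.08, adjusted p = 0.000480). Shank3 had 0.32 and Dlg4, which encodes PSD-95, 0.21. Grik1, a kainate receptor subunit, lay between 32.0 and 60.3 CPM in rich libraries (median 38.3) and between 43.7 and 94.5 CPM in poor libraries (median 65.2), and every rich library was below every poor one in each of the 4 groups (log2 fold change -0.67, SE 0.11, adjusted p = 0.000631). Grin2d, an NMDA receptor subunit of interneurons and deep nuclei, had -0.54.

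Among 30 ion channel genes 12 were higher and 9 lower, against 8.89% higher and 13% lower of all genes, with a median log2 fold change of 0.06. Kcnj2 and Kcnj4 encode inward rectifiers that hold medium spiny neurons at their negative resting potential, and had log2 fold changes of 0.50 and 0.61. Kcnip2, an auxiliary subunit of A-type potassium channels, lay between 220.4 and 302 CPM in rich libraries (median 252) and between 118 and 274 CPM in poor libraries (median 173) (log2 fold change 0.56, SE 0.11, adjusted p = 0.00130). Kcna4 had 0.54 and Kcnab1, a beta subunit, 0.52. The Kv3 channels of fast-spiking cells went the other way: Kcnc2 lay between 36.5 and 80.8 CPM in rich libraries (median 48.4) and between 53.9 and 165 CPM in poor libraries (median 101) (log2 fold change -0.87, SE 0.18, adjusted p = 0.00186), and Kcnc1 had -0.42. The pacemaker channel genes Hcn3 and Hcn4 were lower and passed with each library left out, with -0.50 and -0.55. Hcn2 had -0.23 and did not pass without library 1, 3, 4 or 6 of SNI Mef2c, 1, 2, 4, 5 or 6 of SNI Gfp, 1, 3, 4, 5 or 6 of Sham Mef2c, or 1, 2, 3, 4 or 5 of Sham Gfp (adjusted p between 0.0529 and 0.103).

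Of 14 immediate early genes, which neurons induce upon activity, 5 rose and none fell, against 8.89% higher and 13% lower of all genes, with a median log2 fold change of 0.50. Within groups the median was -0.03 in SNI Mef2c, 0.65 in SNI Gfp, 0.41 in Sham Mef2c and 0.79 in Sham Gfp. Egr3 lay between 83.7 and 120.1 CPM in rich libraries (median 109) and between 52.3 and 114 CPM in poor libraries (median 69.1) (log2 fold change 0.53, SE 0.10, adjusted p = 0.00153), and Egr1 lay between 87.8 and 187 CPM in rich libraries (median 117) and between 44.4 and 138 CPM in poor libraries (median 80.6) (log2 fold change 0.59, SE 0.16, adjusted p = 0.0106). Fosb had 0.53 and Egr4 0.53. Nr4a3 had 0.64 and did not pass without SNI Gfp library 4 (adjusted p = 0.0539). With the mean level of the cortical list as a covariate 1 of the 14 was higher, against 9.58% of all genes in that fit. Without SNI Mef2c libraries 2, 3 and 4, an alternative chosen after seeing the data, 8 of the 14 were higher. Over all genes that fit called 2860 higher in place of 2110.

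Of 12 thalamic and hypothalamic genes tested, out of 17 listed, 4 fell and none rose, with a median log2 fold change of -0.52, against 13% of all genes that fell. Slc17a6, the vesicular glutamate transporter 2 of subcortical neurons, lay between 3.14 and 15.6 CPM in rich libraries (median 8.49) and between 8.21 and 54.9 CPM in poor libraries (median 24.8) (log2 fold change -1.63, SE 0.28, adjusted p = 0.000838). In SNI Gfp it was 7.47, 9.12 and 8.96 CPM in the rich libraries, against 45.8, 20.5 and 30.1 CPM in the poor ones. Sham Mef2c rich libraries had 15.1, 11.4 and 15.6 CPM, against 16.2, 54.9 and 30.5 CPM in the poor ones. Sham Gfp rich libraries had 4.37, 4.06 and 3.14 CPM, against 29.1, 44.3 and 13.8 CPM in the poor ones. In these 3 groups no rich library reached the level of a poor one. In SNI Mef2c the rich libraries had 7.92, 10.5 and 8.02 CPM, against 16.7, 8.21 and 12.2 CPM in the poor ones, and the ranges overlapped. Gal, the precursor for galanin, lay between 0.0957 and 1.01 CPM in rich libraries (median 0.375) and between 0.0667 and 10.3 CPM in poor libraries (median 1.12) (log2 fold change -1.82, SE 0.43, adjusted p = 0.00508). The other 2 were Tcf7l2, a transcription factor of the thalamus, with -0.61, and Nkx2-1, a transcription factor of the hypothalamus and of the medial ganglionic eminence, with -0.73. In SNI Mef2c neither had a lower mean in rich than in poor libraries. Tcf7l2 had 14.3 against 14.1 CPM there, and Nkx2-1 had 6.70 against 4.30 CPM. Tcf7l2 did not pass without library 1, 2, 4 or 5 of SNI Gfp, 3 of Sham Mef2c, or 1, 2, 3, 4 or 5 of Sham Gfp (adjusted p between 0.0563 and 0.0748), and Nkx2-1 did not pass without library 1, 2 or 4 of SNI Gfp, 3, 4 or 5 of Sham Mef2c, or 1, 2, 3, 4 or 5 of Sham Gfp (adjusted p between 0.0541 and 0.0690).

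The 10 largest falls named among genes with a mean of at least 1 CPM were of the same kind in part. Lhx1, Lhx5 and Lhx9, LIM homeobox genes of developing diencephalon and forebrain, had log2 fold changes of -2.13, -2.14 and -1.85, at levels under 6 CPM in every library. Ngfr, the p75 neurotrophin receptor of basal forebrain cholinergic neurons, lay between 1.66 and 12.1 CPM in rich libraries (median 4.82) and between 2.72 and 56.9 CPM in poor libraries (median 16.2) (log2 fold change -1.80, SE 0.45, adjusted p = 0.00671). Irs4, an insulin receptor substrate with high levels in the hypothalamus, lay between 1.02 and 8.34 CPM in rich libraries (median 2.69) and between 0.534 and 52.0 CPM in poor libraries (median 10.7) (log2 fold change -1.86, SE 0.42, adjusted p = 0.00367). Cckar, a cholecystokinin receptor, had -1.86, and Pgr15l, an orphan receptor, -1.82. Gal, Gabrq and Nespas made up the rest. Of these 10 genes, 9 had a fitted difference above 0 in SNI Mef2c, although all 10 were at -1.21 or lower in each of the other groups. By edgeR no term for such a difference between groups passed, whereas DESeq2 and limma-voom called some genes, as given below.

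**Figure D3:**
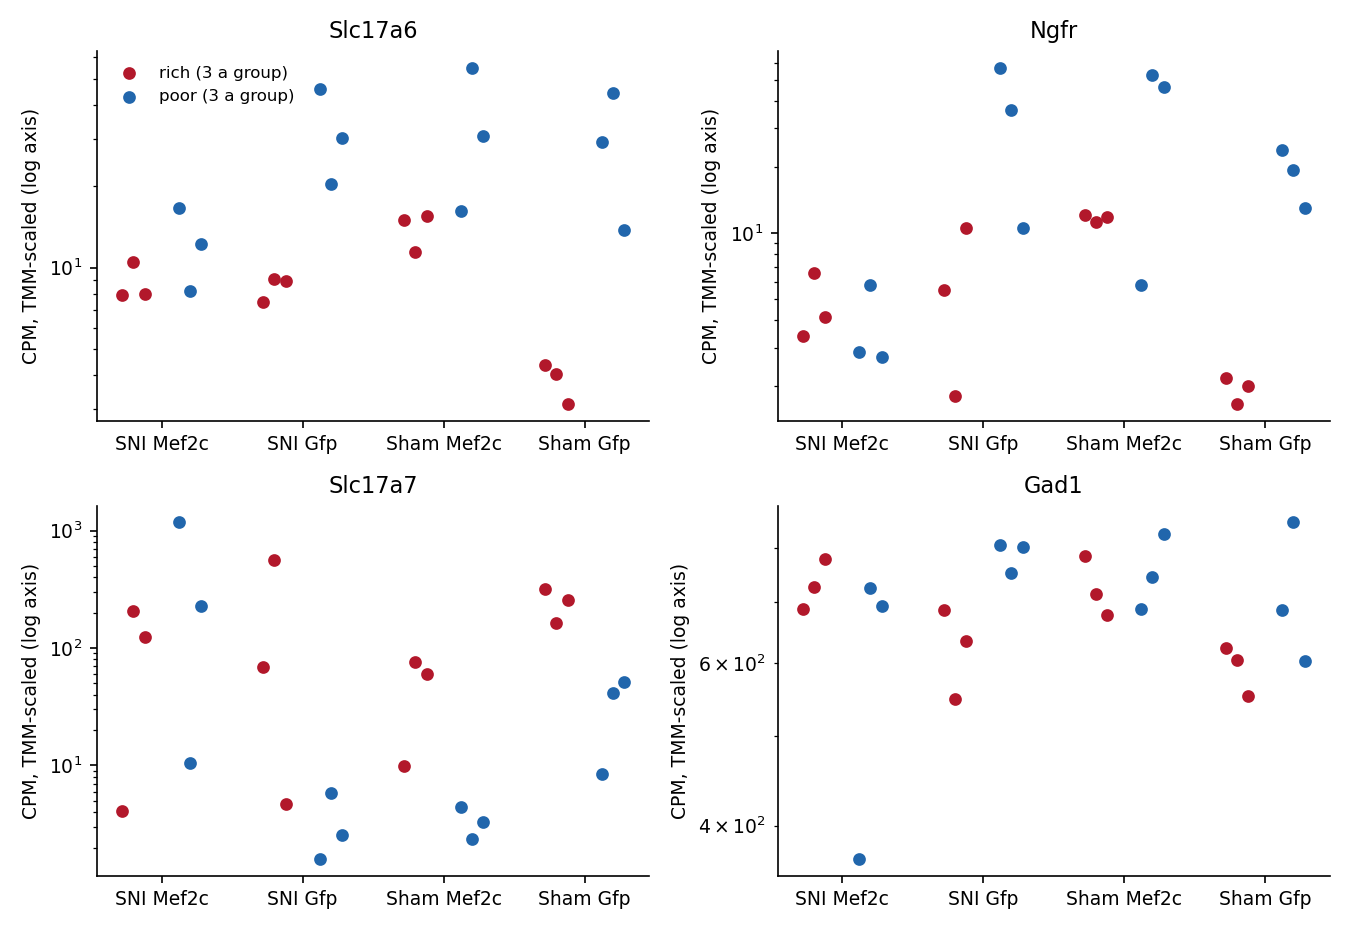
Levels of Slc17a6, Ngfr, Slc17a7 and Gad1 in each library, in CPM on a log axis, by group, with the 3 rich libraries left of the 3 poor ones. Slc17a6 was lower in all rich than in all poor libraries of 3 groups, and Slc17a7 was highest in a poor library, SNI Mef2c library 1.

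Of 15 interneuron genes 3 fell and none rose, against 13% of all genes that fell, with a median log2 fold change of -0.15. Within groups the median was 0.22 in SNI Mef2c, -0.60 in SNI Gfp, -0.10 in Sham Mef2c and -0.40 in Sham Gfp. Calb2, the calcium-binding protein calretinin, lay between 8.83 and 26 CPM in rich libraries (median 16.4) and between 12.2 and 68.0 CPM in poor libraries (median 34.6) (log2 fold change -1.05, SE 0.20, adjusted p = 0.00135). Lhx6, a transcription factor of interneurons from the medial ganglionic eminence, had -0.84. Lhx8, a transcription factor of cholinergic neurons, had -0.98 and did not pass without library 1, 2, 4 or 5 of SNI Gfp, 3, 4 or 5 of Sham Mef2c, or 1, 2, 3, 4 or 5 of Sham Gfp (adjusted p between 0.0536 and 0.0735). Without SNI Mef2c library 1, 4 of the 15 were lower and 1 was higher, where 3425 of all genes were lower and 2549 higher.

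Of 7 septal genes 2 fell, against 13% of all genes, Trpc4 with -0.55 and Zic4 with -0.44, the second of which overlaps Zic1. With 1 library left out, the count was 1 or 0 for every library except SNI Gfp libraries 5 and 6 and SNI Mef2c libraries 1, 2, 4 and 6, so these values are given as a description. The median log2 fold change of the list was -0.42, with 0.15 in SNI Mef2c, -0.40 in SNI Gfp, -0.92 in Sham Mef2c and -0.36 in Sham Gfp.

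Genes of cortical neurons crossed the split differently from group to group. Slc17a7, the vesicular glutamate transporter 1 of cortical neurons, spanned a wide range, from 4.10 to 558 CPM in rich libraries (median 101) and from 1.60 to 1175 CPM in poor libraries (median 7.15), and did not pass (log2 fold change 2.88, SE 1.15, adjusted p = 0.0786). The SNI Mef2c rich libraries held 4.10, 207 and 125 CPM, against 1175, 10.6 and 228 CPM in the poor ones. SNI Gfp rich libraries held 68.8, 558 and 4.73 CPM, against 1.60, 5.79 and 2.54 CPM in the poor ones. In SNI Mef2c the poor library 1 held more than any other, and in SNI Gfp the rich libraries reached up to the next highest level. Sham Mef2c rich libraries held 9.83, 75.9 and 60.5 CPM, against 4.46, 2.37 and 3.31 CPM in the poor ones. Sham Gfp rich libraries held 318, 163 and 259 CPM, against 8.50, 41.5 and 51.6 CPM in the poor ones. In Sham Gfp and Sham Mef2c every rich library was above every poor one, whereas in SNI Mef2c the highest value of all 24 libraries was in a poor one. Ranked by Slc17a7 in the same way, 9 of the 12 rich libraries and 3 of the 12 poor ones were among the top 3 of their group. Of 15 cortical genes none rose and 1 fell by edgeR, against 8.89% higher and 13% lower of all genes. DESeq2 and limma-voom each called 5 of the 15 higher and 1 lower. Over all genes they called 2376 and 2908 higher, and 3164 and 3685 lower. The gene that fell by edgeR was Rasgrf2, a guanine nucleotide exchange factor, with -0.43, which did not pass without Sham Gfp library 5 (adjusted p = 0.0512). Without SNI Mef2c library 1, 6 of the 15 cortical genes were higher in the rich libraries, and without SNI Mef2c library 3, 4 were. Over all genes these fits called 2549 and 2289 higher, and 3425 and 3011 lower.

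Of 7 genes of striosomes and matrix, the compartments of the striatum, 2 rose, against 8.89% of all genes, Sema5b with 0.68 and Epha4 with 0.21. Of 9 genes enriched on the accumbens side 2 rose, against 8.89% of all genes, Cartpt, given above, and Stard5 with 0.64, which did not pass without library 1 of SNI Gfp, 1 or 4 of Sham Mef2c, or 2, 3 or 4 of Sham Gfp (adjusted p between 0.0513 and 0.0601). Without SNI Mef2c library 1 this list had 2 higher and 2 lower genes, and without the whole SNI Mef2c group 3 of each. In the first fit 2549 of all genes were higher and 3425 lower, and in the second fit 14.5% were higher and 16.5% lower. Of 3 genes enriched on the dorsolateral side 1 rose, against 8.89% of all genes, Gpr155 with 0.14, and the other 2 had values below 0 and did not pass, with a median over the list of -0.24.

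Of 12 oligodendrocyte genes 7 were lower in the rich libraries, against 13% of all genes, with a median log2 fold change of -0.26. Their summed level lay between 2571 and 3966 CPM in rich libraries (median 3097) and between 2435 and 4398 CPM in poor libraries (median 3770). Mag and Mog, both proteins of the myelin sheath, had log2 fold changes of -0.32 and -0.34. The count was 2 to 4 without library 1, 4, 5 or 6 of SNI Mef2c, 1, 4, 5 or 6 of SNI Gfp, 1, 3, 4 or 5 of Sham Mef2c, or 1, 2, 3, 4 or 5 of Sham Gfp, and 11 without SNI Mef2c library 2 or Sham Gfp library 6. Over all genes 2260 to 3425 were lower with 1 library left out. Among 13 astrocyte genes 5 fell and 1, Slc1a2, rose, against 13% lower and 8.89% higher of all genes, with a median of -0.05. Agt, the precursor for angiotensin, made by astrocytes of the hypothalamus and neighbouring regions above all, lay between 4.09 and 23.6 CPM in rich libraries (median 9.35) and between 3.54 and 78.2 CPM in poor libraries (median 32.4) (log2 fold change -1.56, SE 0.33, adjusted p = 0.00248). In SNI Mef2c its mean was 8.42 CPM in rich and 7.66 CPM in poor libraries, so the fall lay in the other groups. Gjb6, the gap junction protein connexin 30, had -0.54. Slc1a2, a glutamate transporter, had 0.20 and did not pass without library 1 or 2 of SNI Gfp, 3, 4 or 5 of Sham Mef2c, or 1, 2 or 4 of Sham Gfp (adjusted p between 0.0502 and 0.0604). Of 5 genes of oligodendrocyte precursors 3 fell and 1 rose, against 13% lower and 8.89% higher of all genes. The genes that passed included Pdgfra, the receptor by which these cells are known, with -0.18.

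None of the genes of the microglia (12), endothelial (11), mural and fibroblast (12), ependymal and choroid plexus (9), interferon (26), neuroblast (10) and mitochondrially encoded (13) lists passed by edgeR in either direction, against 21.9% of all genes. Left out alone, Sham Gfp library 2 gave 1 higher gene in the microglia list, and SNI Gfp library 3 gave 1 in the mural list. Over all genes these fits called 1936 and 1991 higher. The median over the interferon list was 0.39 on the log2 scale, with 2.00 in SNI Gfp and 0.00 to -0.40 in the other groups, and its summed level lay between 118 and 1606 CPM in rich libraries and between 115 and 2265 CPM in poor ones. Of 12 genes used by all neurons 1 rose and 4 fell, against 8.89% higher and 13% lower of all genes, with a median of -0.14. Rbfox3, the neuronal nuclear protein NeuN, had 0.30. Nefh, the heavy neurofilament of large axons, lay between 26.2 and 83.4 CPM in rich libraries (median 58.9) and between 52.2 and 167 CPM in poor libraries (median 98.3) (log2 fold change -0.82, SE 0.20, adjusted p = 0.00574), and Stmn2 had -0.59. The other 2 were Tubb3, which overlaps a predicted gene, with -0.33, and Uchl1, with -0.15, which did not pass without library 1 or 3 of SNI Mef2c, 1, 2, 5 or 6 of SNI Gfp, 1, 3, 4, 5 or 6 of Sham Mef2c, or 1, 2, 3, 4 or 5 of Sham Gfp (adjusted p between 0.0507 and 0.104).

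Antibody genes had the largest fitted rises. Ighg2c, a heavy chain constant region, lay between 0 and 169 CPM in rich libraries (median 13.8) and between 0 and 33.8 CPM in poor libraries (median 0.150) (log2 fold change 4.69, SE 1.17, adjusted p = 0.00672). In this family 18 of 29 genes were higher in the rich libraries and none lower, against 8.89% higher and 13% lower of all genes. The count filter used the same libraries, so a gene high mainly in rich ones could enter the test through them. Igkv5-48 averaged 5.91 CPM in the rich libraries of Sham Gfp and 0.704 CPM in those of SNI Gfp. It averaged 0.230 CPM in the poor libraries of Sham Gfp and was 0 elsewhere. The count of higher genes is thus a description. The 10 named rises were all of this family, in an order set by fitted folds. Ighg3, Ighg1, Ighj4, Igkv5-48 and Igkv10-96 had log2 fold changes of 4.04, 3.74, 3.23, 4.79 and 4.70, and Igkc, Igkv1-135, Ighv3-2 and Igha had 3.81, 3.89, 3.75 and 3.33. Fitted folds of genes with many libraries at or near 0 depend on the prior count and are no measure of size. Igkc did not pass without library 1 of SNI Gfp, or 6 of Sham Mef2c (adjusted p between 0.05004 and 0.110), Igkv1-135 without library 6 of SNI Mef2c, 1, 3, 5 or 6 of SNI Gfp, 6 of Sham Mef2c, or 2 or 4 of Sham Gfp (adjusted p between 0.0513 and 0.0774), Ighv3-2 without library 1 of SNI Gfp, or 1 of Sham Gfp (adjusted p between 0.0512 and 0.0691) and Igha without library 4 or 6 of SNI Mef2c, 1, 3, 4 or 5 of SNI Gfp, 2, 4 or 6 of Sham Mef2c, or 1, 2, 3, 4 or 6 of Sham Gfp (adjusted p between 0.0514 and 0.105). Summed over all immunoglobulin genes, the rich libraries of Sham Gfp held 2735, 1362 and 271 CPM, against 360, 234 and 571 CPM in its poor libraries. In SNI Gfp the sums were 11.1, 496 and 1784 CPM in rich libraries and 11.4, 11.2 and 16.7 CPM in poor ones. In the other groups Sham Mef2c library 6, a rich one, held 440 CPM, and the remaining 11 libraries lay between 8.62 and 20.9 CPM. All 6 libraries of Sham Gfp, rich and poor, were thus at 234 CPM or more, and elsewhere 3 rich libraries stood out. Over all genes, fits without Sham Gfp library 1, Sham Mef2c library 6 or SNI Gfp library 1 called 1918, 2119 and 1714 higher. The number of higher genes of the family was 11, 12 and 11 in these fits. It was 0 with the thalamic and hypothalamic list as a covariate, a fit in which 0.404% of all genes were higher. Of the 13 lymphocyte genes 1 rose, near the 8.89% of all genes. All 13 fitted differences were above 0, with a median of 0.86. Within groups the median was -0.58 in SNI Mef2c, 4.23 in SNI Gfp, 0.77 in Sham Mef2c and -0.34 in Sham Gfp. Cd4, the gene that rose, lay between 18.9 and 40.2 CPM in rich libraries (median 30.8) and between 8.70 and 32.9 CPM in poor libraries (median 18.1) (log2 fold change 0.71, SE 0.14, adjusted p = 0.00136). Cd3e had a median of 0.0605 CPM in rich libraries and 0.0331 CPM in poor ones. Its means were 1.68 CPM in rich and 3.25 CPM in poor libraries of Sham Gfp, and 1.84 and 0.0455 CPM in those of SNI Gfp.

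**Figure D4:**
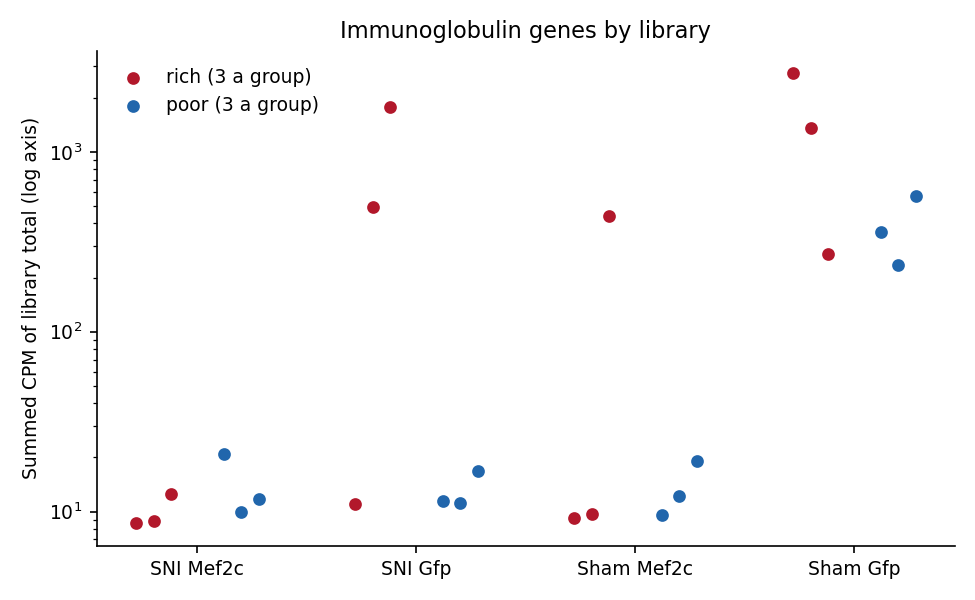
Summed level of all immunoglobulin genes in each library, in CPM of the library total on a log axis, by group, with the 3 rich libraries left of the 3 poor ones. All 6 Sham Gfp libraries were at 234 CPM or more, and of the other 18 libraries 3 rich ones were above 400 CPM.

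Outside that family the largest fitted rises, looked up after the immunoglobulin genes were seen, were of genes at low to moderate levels. Wt1, a zinc finger transcription factor, lay between 0.0360 and 3.19 CPM in rich libraries (median 1.89) and between 0 and 1.65 CPM in poor libraries (median 0.303) (log2 fold change 2.19, SE 0.48, adjusted p = 0.00310). Stra6, the membrane receptor for retinol-binding protein, lay between 6.05 and 29.7 CPM in rich libraries (median 22.1) and between 2.06 and 20.6 CPM in poor libraries (median 8.95) (log2 fold change 1.26, SE 0.27, adjusted p = 0.00262). Rarb, a retinoic acid receptor that overlaps Top2b, had 0.68. Cd163, a scavenger receptor known from macrophages around vessels, lay between 14.5 and 40.9 CPM in rich libraries (median 33.8) and between 7.31 and 33.4 CPM in poor libraries (median 11.5) (log2 fold change 1.14, SE 0.19, adjusted p = 0.000789). Dsg1c, a desmosomal cadherin, had 1.32, and Trib3, a pseudokinase, 1.15.

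Among the genes of smallest p, Cdc25a, a cell cycle phosphatase, lay between 5.91 and 7.94 CPM in rich libraries (median 6.97) and between 6.95 and 12.2 CPM in poor libraries (median 9.98) (log2 fold change -0.49, SE 0.06, adjusted p = 0.000295), and Smoc1, a secreted calcium-binding protein, lay between 11.5 and 17.2 CPM in rich libraries (median 13.7) and between 14.3 and 25.9 CPM in poor libraries (median 19.8) (log2 fold change -0.50, SE 0.06, adjusted p = 0.000440). Both separated rich and poor libraries in each of the 4 groups. Atf6, a sensor of stress in the endoplasmic reticulum, had 0.28 and was separated in 3 groups. Pde4b, described above, was also among them.

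Of the MEF2 transcription factors, one of which the vector carried, Mef2a had a fitted log2 difference of 0.21 (SE 0.04, adjusted p = 0.000786) and Mef2d 0.19 (SE 0.04, adjusted p = 0.00402). Mef2a overlaps Lysmd4. Mef2b had -0.0049 (adjusted p = 0.956). Mef2c had 0.46 (SE 0.15, adjusted p = 0.0317). In Sham Mef2c it held 469, 248 and 285 CPM in rich libraries, against 125, 210 and 123 CPM in poor ones. In SNI Mef2c it held 510, 583 and 832 CPM in rich libraries, against 748, 474 and 518 CPM in poor ones. The ranges were apart in Sham Mef2c and overlapped in SNI Mef2c. The counts do not separate the mouse gene from the vector's copy. The fitted difference was 0.48 in SNI Gfp and 0.11 in Sham Gfp, the groups without that copy. The call was lost without library 6 of SNI Mef2c, 1 or 2 of SNI Gfp, or 2 or 5 of Sham Mef2c (adjusted p between 0.0510 and 0.0630).

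The genes whose level was most like that of Ppp1r1b were sought by Pearson correlation of log2 CPM over the 24 libraries after subtracting each group's mean, among 14235 genes. The libraries share their depth and the makeup of the punch, so the values are descriptions. The antisense gene 1700003D09Rik, which overlaps Ppp1r1b, came first with 0.999. Sh2d5 followed with 0.993, and overlaps Kif17. Kcnip2 and Pde1b had 0.992, Adcy5 0.991, Gng7 0.988, and Kctd1, Kcnab1 and Lingo3 0.985. Among these, Pde1b, Adcy5 and Gng7 belong to the list of shared medium spiny neuron genes, and Kcnip2 and Kcnab1 to the ion channels.

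Whether the rich and poor libraries differed alike in all 4 groups was tested by an interaction of split and group. By edgeR no gene passed, 0 of 23738, with 3387 genes at an unadjusted p under 0.05 and a smallest adjusted p of 0.159. DESeq2 called 780 genes and limma-voom 1155. Without SNI Gfp library 2 edgeR called 322 genes, and without SNI Mef2c library 2 it called 104. The 5 named genes with the smallest p were Mfap3l, Hfe2, Pwwp2a, Ppp4r1 and Rbm46. For Mfap3l the fitted log2 difference was -0.24 in SNI Mef2c and 0.50, 0.47 and 0.48 in SNI Gfp, Sham Mef2c and Sham Gfp. Hfe2 had 1.62 in SNI Mef2c and -1.26 to -2.28 in the others. The medians of the lists showed the same layout. The shared medium spiny neuron list had 0.34 in SNI Mef2c, 0.52 in SNI Gfp, 0.72 in Sham Mef2c and 0.69 in Sham Gfp. The cortical list had -1.72 in SNI Mef2c, against 1.86, 0.56 and 1.48 in SNI Gfp, Sham Mef2c and Sham Gfp. For the thalamic and hypothalamic list the medians were 0.30 in SNI Mef2c, and -0.71, -0.38 and -0.91 in those 3 groups. The striatal interneuron, septal and immediate early lists had 0.22, 0.15 and -0.03 in SNI Mef2c, each with the other sign in those 3 groups. Without the whole SNI Mef2c group, an alternative chosen after seeing the data, 3381 genes were higher (14.5% of those tested) and 3858 lower (16.5%). In that fit 8 of 15 cortical genes were higher and 0 lower, and 20 of 22 shared medium spiny neuron genes were higher and 1 lower.

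**Figure D5:**
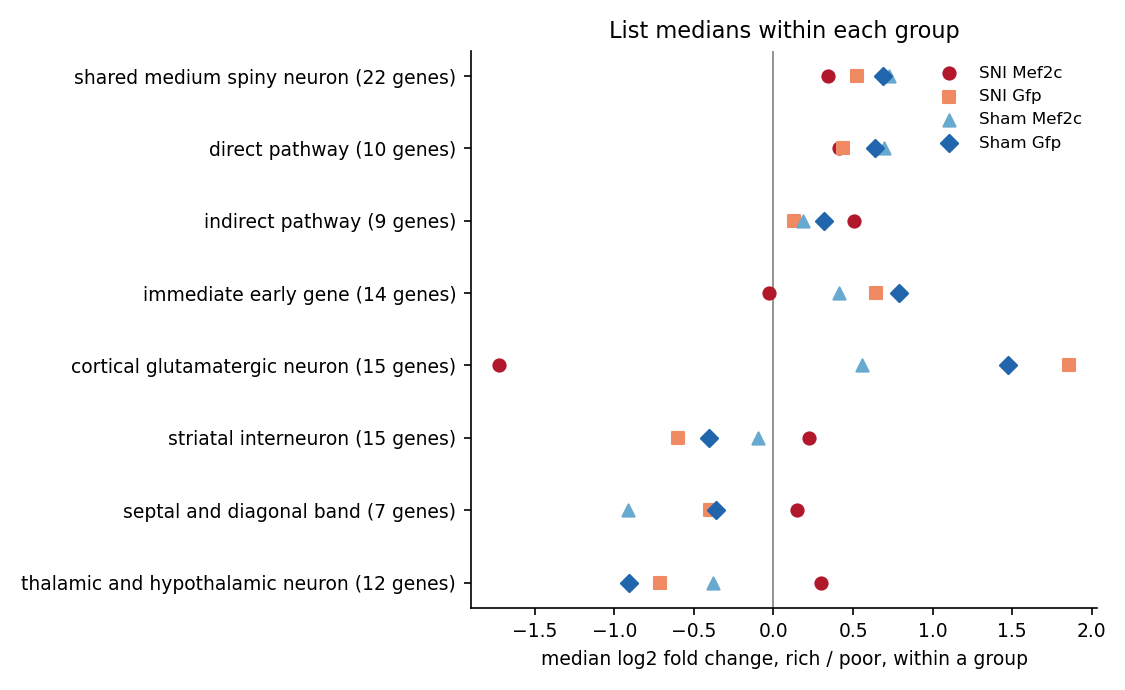
Median fitted log2 fold change of rich against poor libraries over the genes of 8 lists, within each of the 4 groups. The shared medium spiny neuron list lies above 0 in all 4 groups. In SNI Mef2c the cortical list is at -1.72 and the thalamic and hypothalamic list at 0.30. The striatal interneuron list is at 0.22, the septal list at 0.15 and the immediate early list at -0.03 there. Each of these lists lies on the other side of 0 in the other groups.

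The fits with a tissue list as a covariate gave different counts. With the mean level of the thalamic and hypothalamic list as a covariate, an alternative chosen after seeing the data, 96 genes were higher (0.404%) and 199 lower (0.838%). Of the 22 shared medium spiny neuron genes 4 passed in place of 20, with a median log2 fold change of 0.52 in place of 0.57. Rasd2, Rxrg, Scn4b and Bcl11b were those 4, and of the other genes named above Drd2, Pde4b, Mgll, Gabra4, Homer1, Grik1, Cdc25a, Smoc1 and Atf6 passed. With the oligodendrocyte list as a covariate 517 genes were higher (2.18%) and 591 lower (2.49%), and 15 of the 22 passed. In that fit 0 of 10 direct pathway, 1 of 9 indirect pathway, 0 of 13 peptide and 1 of 14 immediate early genes were higher. Of the 30 ion channel genes 5 were higher and 0 lower. With the cortical list 20 of 22 were higher, where 9.58% of all genes were higher and 13.5% lower. With the septal list 20 of 22 passed as well, where 7.17% of all genes were higher and 11.4% lower. The part of these tissues in each gene's difference was not tested.

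Ppp1r1b itself was set between treatments, over all 6 libraries of a group. Its mean was 597 ± 149 CPM in SNI Mef2c, 508 ± 123 CPM in SNI Gfp, 460 ± 123 CPM in Sham Mef2c and 478 ± 135 CPM in Sham Gfp (SD, n = 6 each). SNI Mef2c against SNI Gfp gave a log2 difference of 0.22 (exact permutation p = 0.394, adjusted over 4 comparisons 0.788). SNI Mef2c against Sham Mef2c gave 0.37 (exact permutation p = 0.165, adjusted 0.658). SNI Gfp against Sham Gfp gave 0.10 (exact permutation p = 0.649, adjusted 0.844). Sham Mef2c against Sham Gfp gave -0.05 (exact permutation p = 0.844, adjusted 0.844). None passed. The second depended on 1 library: without SNI Mef2c library 1 it was 0.56 (exact permutation p = 0.00433, adjusted 0.0173). That library was the lowest of its group, so leaving it out raises the difference by itself. No effect of treatment on Ppp1r1b is read from this fit.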

How the data were processed

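RNA was sequenced from punches of the nucleus accumbens of both sides, with 24 libraries made by a stranded mRNA kit, per the labels' protocols. Deposited by the authors were raw counts and, in a second table, FPKM for the same genes. Per the submitters' processing notes, featureCounts and the mm10 genome were used, with the aligner, annotation and counting options not given in the sources used here. In the deposited FPKM the gene length worked out to the whole gene span, introns included, for 43090 of 43384 genes compared. Counts are thus read as covering introns. Whether counting used the strand is not known, so overlapping genes, taken on either strand, may share reads. Of 55401 gene IDs, 55141 matched a GENCODE M21 symbol.

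Ppp1r1b CPM was computed on the library total, and libraries were split within each group. Tests used edgeR 4.0.16 in R 4.3.3: filterByExpr by group, TMM scaling and a robust quasi-likelihood fit with a coefficient per group and 1 for the split (19 residual degrees of freedom, 23738 genes). P-values were adjusted by Benjamini and Hochberg over all genes, with a threshold of 0.05. Each SE is the absolute log2 fold change divided by the square root of the F statistic of its test, and is thus approximate. Levels of other genes are TMM-scaled CPM, and list means are log2 CPM with a prior count of 2. All 24 libraries enter each fit unless stated. Ppp1r1b was compared between treatments by two-sided exact permutation of log2 CPM. The fits were tested on simulated data. Alternatives used DESeq2 1.42.0, limma 3.58.1 on counts and on log2 FPKM, other scalings and filters, tissue covariates, a replicate block, and each library left out. Same-numbered libraries of different groups were not treated as pairs.

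The members, the 31 gene lists and the rules were chosen with earlier results of these data known. Named genes had to pass the threshold and average 1 CPM or more in rich or poor libraries: of these, the 10 that rose most, the 10 that fell most and the 5 of smallest p, with predicted genes (956 of 4907) counted but not named. Up to 4 genes of each list by smallest p, the 5 smallest p-values of the interaction, the MEF2 genes, Slc17a7 and the 10 genes most like Ppp1r1b (mean of at least 5 CPM) are named too. Other list members were named after their values were seen, and some genes that the rule takes are not reported here.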

Additional observations from a re-analysis of the deposited data

Results flagged for a closer look

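Among 28 sets of 6 libraries, which are the 4 groups for the level of Ppp1r1b and for 6 gene lists, 5 had a library whose gap to the nearest other exceeded the critical value of Dixon's test. Chance flags about 1 in 20 independent sets, but these sets share their libraries. That rate is therefore no yardstick for the 5 flagged sets.

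SNI Mef2c library 1 was the lowest of its group in 3 of them. It held 299 CPM of Ppp1r1b, next to 630 CPM in the library above it. Its mean log2 CPM over the shared medium spiny neuron genes was 7.73, next to 8.73, and over the striatal interneuron genes 3.66, next to 4.06. The same library had the highest Slc17a7 of all 24, at 1175 CPM. SNI Gfp library 4, a rich one, had the highest mean over the cortical genes in its group, at 4.88, next to 2.80. Sham Mef2c library 4, a poor one, had the highest mean over the thalamic and hypothalamic genes in its group, at 3.15, next to 2.39.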

How the results depend on the processing

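The counts of 2110 higher and 3083 lower genes stayed within 1.5 times under library scaling, low-count filters, DESeq2, limma-voom, FPKM and the fits without a group term or with the cortical or septal list. With log2 Ppp1r1b as a continuous covariate they were 3528 and 4428, with the oligodendrocyte list 517 and 591, with the thalamic and hypothalamic list 96 and 199, and without the SNI Mef2c group 3381 and 3858. The last 2 settings were chosen after seeing the data, and the cause was not tested. With 1 library left out, 1658 to 2549 genes were higher and 2260 to 3425 lower. The interaction gave 0 genes by edgeR, 780 by DESeq2, 1155 by limma-voom and 0 to 322 with 1 library left out.

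With the replicate block 1975 genes were higher and 2698 lower, and 12 of 127 named genes lost their call. Of 29 immunoglobulin genes 10 were higher with the block, in place of 18. Over 36 same-numbered pairs the deviations from the group means correlated between -0.609 and 0.376 (median 0.00014), and 11 pairs were over 0.1. These values were not set against pairs of unlike number, so whether libraries of the same number shared a batch was not tested. For the level of Ppp1r1b the block gave p = 0.719 for SNI Gfp against Sham Gfp, 0.938 for Sham Mef2c against Sham Gfp, 0.219 for SNI Mef2c against SNI Gfp and 0.219 for SNI Mef2c against Sham Mef2c, by exact sign-flip permutation. With 1 library left out these differences lay at -0.0299 to 0.20, -0.18 to 0.0701, 0.12 to 0.41 and 0.25 to 0.56.

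Of 127 named genes that passed, 109 did so with each library left out and 101 under every other setting without a tissue covariate. Signs turned for Nkx2-1 (0.00905 with the thalamic and hypothalamic list) and for genes that had not passed. Gad1 had 0.0502 with the cortical and 0.13 with the thalamic and hypothalamic list. Gad2 had 0.22 with continuous Ppp1r1b, 0.23, 0.26 and 0.0106 with the cortical, thalamic and hypothalamic, and septal lists, 0.0182 with the replicate block, 0.0182 and 0.0280 on FPKM with pseudocounts of 1 and 0.1, and 0.0477 without the 3 SNI Mef2c libraries of nearly equal Ppp1r1b. With 1 library left out it lay between -0.111 and 0.0362. Cd3e had -0.39 by limma-voom. Mef2b had 0.000273 by DESeq2, 0.000267 without the SNI Mef2c group, 0.00737 with the cortical list, 0.00153 with no filter, 7.75e-05 with the replicate block and -0.0257 to 0.0201 with 1 library left out.

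With 25477019 counts or more per library depth limited only genes near 0 CPM, whose fitted folds are imprecise. The p-values cover the spread between libraries.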
